A study of Mus musculus with 32 samples.

Results

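This account covers 9 genes that store, carry, make, break down or respond to retinoids in mouse liver, namely Lrat, Rbp4, Adh1, Aldh1a1, Aldh1a2, Cyp26a1, Cyp26b1, Rarb and Rarres2. They were chosen by name among the non-control probes of the array, where they were represented by 11 of 55681 probes and made up 9 of 34947 gene names. The rule itself uses no measured value. Every one of the 9 genes had a probe bright enough to be tested, and Rarb was represented by 3 probes.

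The liver holds most of the vitamin A of the body, largely as retinyl esters in the lipid droplets of hepatic stellate cells (HSC). Lecithin retinol acyltransferase makes these esters, hepatocytes release retinol bound to retinol binding protein, and alcohol and aldehyde dehydrogenases oxidize retinol through retinal to retinoic acid. Retinoic acid acts through nuclear receptors and is cleared by cytochromes of the Cyp26 family, and HSC that become activated lose their retinoid droplets.

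Liver RNA from male C57/BL6 mice was hybridized to 32 arrays, 1 per sample and 4 per group, in 8 groups. The mice entered the study at 8 weeks of age and were fed a chow diet, called standard diet in the labels (C), or a methionine- and choline-deficient (MCD) diet that had lasted 3 weeks at the time of partial hepatectomy (PH). Mice of the 2 treated groups, named C+Fc-GLP-1 on chow but M+Fc-GLP-1 on the MCD diet, also received Fc-GLP-1, in which GLP-1 is joined to an antibody Fc part, over the last 2 weeks up to PH, whereas C and MCD mice received saline. The same 4 kinds of mice were sampled before PH, when 70% of the liver was removed, and 2 weeks after PH, with diet and treatment continued, so that the groups after PH are of mice that survived the operation. The labels are not uniform on the drug. The source names give Fc-GLP-1 for every treated group, but those of C+Fc-GLP-1 mice after PH also name a dual agonist for the time after PH. The descriptions of all treated samples give a dual agonist, which the growth protocol says acts on GLP1R and GCGR and was dosed at 4.4 mg/kg/day, every 2 days. Nothing on the arrays decides between these labels, and every comparison of a treated group carries this conflict. Sample titles repeat the same replicate numbers before and after PH, but no label says that such samples come from the same mouse. The main comparisons of after with before PH were not paired. The labels call the 4 samples of a group biological replicates.

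Values are given as the log2 signal of a probe minus the 75th percentile of all non-control spots on the same array, so that 0 marks that percentile, and a difference between group means is a log2 fold change. The share of probes well above background was between 36.3% and 69.2% per array, and arrays of the same group correlated at 0.94 to 0.98. All 10 hepatocyte markers examined were measured, and the log2 of their summed level was between 11.38 and 12.76 on every array. Too dim to be tested were 4 of 5 adipocyte and 4 of 5 pancreas markers. The tested adipocyte marker ran from -7.35 (MCD mice before PH) to 3.14 (C mice after PH, lowest -6.45). It passed a limma adjusted p of 0.05 only for MCD against C mice before PH (-4.34). The tested pancreas marker ran from -6.16 (C mice after PH) to -1.92 (C+Fc-GLP-1 mice before PH). It passed for M+Fc-GLP-1 against C+Fc-GLP-1 mice before PH (-2.07) and for the diet by drug interaction before PH (-2.73). The part of other tissues in these arrays was not tested. The arrays lay on 5 slides. C and MCD mice before PH shared slide 1, both treated groups before PH shared slide 2, and both treated groups after PH shared slide 4. C mice after PH were alone on slide 3 and MCD mice after PH on slide 5, and these slides were read on another scanner than the rest. For comparisons of groups on different slides, group and slide cannot be told apart. Precision is limited throughout by having 4 arrays in a group.

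Across the 14 comparisons, 9 changes of 4 of these genes passed the threshold of 0.05 for the adjusted p of limma. These were 9 of 126 tests (7.14%), while 7.96% of the tests of all genes passed, so that the share was near the background. Cyp26b1 accounted for 4 of them, Lrat for 2, Aldh1a2 for 2 and Cyp26a1 for 1, whereas Rbp4, Adh1, Aldh1a1, Rarb and Rarres2 passed it in no comparison. In bulk liver RNA, fewer cells of a type and less RNA per cell cannot be told apart.

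**Figure D1:**
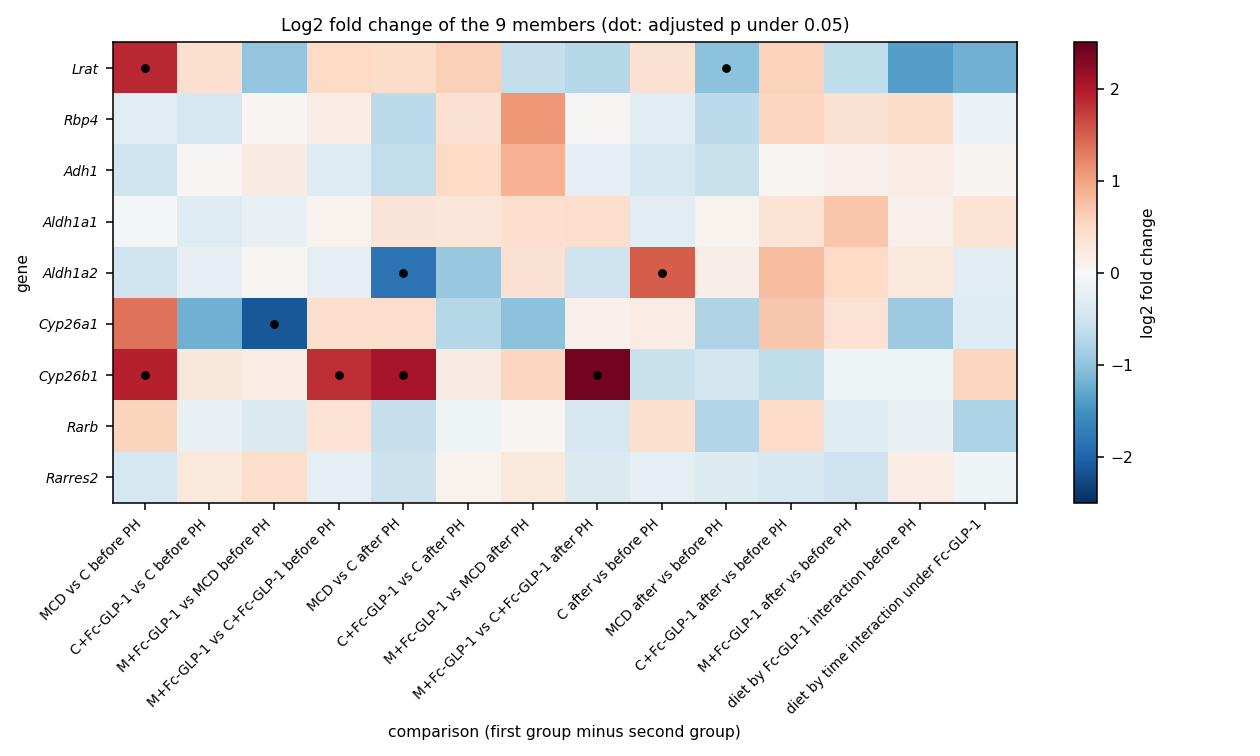
Colours give the log2 fold change (first group minus second group) of each of the 9 genes in each of the 14 comparisons, the last 2 being interactions, and dots mark an adjusted p under 0.05 by limma. The 4 dots in the row of Cyp26b1 stand at the 4 comparisons of MCD-fed with chow-fed mice, and the 5 rows without a dot are those of Rbp4, Adh1, Aldh1a1, Rarb and Rarres2.

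Lrat (chr3:82892582-82903974, GRCm38.p6), which esterifies retinol for storage, was higher in livers from MCD than from C mice before PH. The 4 C arrays read -0.90, -0.91, -0.82 and 0.55, and the 4 MCD arrays read 1.46, 0.57, 2.09 and 1.30. The groups did not overlap, although the highest C array and the lowest MCD array were only 0.02 apart. The difference was 1.88 ± 0.31 (SE, n = 4 per group), a 3.67-fold rise (limma adjusted p = 8.04e-05). Both groups lay on the same slide. Without the C array at 0.55 the difference was 2.23. In this comparison 26.3% of 21289 tested genes passed the threshold and 28.3% had groups that did not overlap, and of the 9 retinoid genes Lrat and Cyp26b1 passed, both upwards (10.9% of all genes passed upwards).

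In M+Fc-GLP-1 mice before PH the Lrat values were 0.63, -0.01, 0.52 and 0.36, with a mean of 0.37 that lay between the means of C mice at -0.52 and MCD mice at 1.36. The 4 C+Fc-GLP-1 arrays read 0.17, -0.40, 0.03 and -0.27. The difference of M+Fc-GLP-1 from MCD mice was -0.98 ± 0.31 (n = 4 per group, limma adjusted p = 0.0526) and the groups overlapped by a single M+Fc-GLP-1 array. The effect of Fc-GLP-1 in MCD-fed mice minus that in chow-fed mice, in which slide differences cancel, was -1.39 ± 0.44 (limma adjusted p = 0.0585), where 6.13% of all genes passed. Neither passed the threshold as tested, and of the 9 genes 0 passed in the interaction and Lrat alone was under 0.05 before adjustment. Over the alternatives the adjusted p lay between 0.0225 and 0.177 for the former, with 5 of 18 under the threshold, and between 0.00962 and 0.129 for the latter, with 4 of 26 under it.

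After PH the Lrat values of MCD mice were 0.54, 0.73, -0.10 and 0.12, against 1.46, 0.57, 2.09 and 1.30 before PH. Lrat fell by 1.03 on the log2 scale (SE 0.31, n = 4 per group, 2.05-fold lower, limma adjusted p = 0.0354), and the groups overlapped. It was the only one of the 9 genes past the threshold in this comparison, where 9.33% of all genes passed and 19.2% did not overlap. The call was lost without MCD before PH replicate 1 (adjusted p = 0.0771), replicate 3 (0.156) or replicate 4 (0.0644), and without MCD after PH replicate 3 (0.111) or replicate 4 (0.0833). Of the remaining groups after PH, C mice read -0.47, -0.38, 0.26 and 0.07. C+Fc-GLP-1 mice read 0.72, 0.57, -0.05 and 0.58, and M+Fc-GLP-1 mice read 0.07, -0.40, -0.78 and 0.06, so that these 3 groups overlapped. Ordered by mean, MCD mice before PH stood highest at 1.36 ± 0.62 (SD, n = 4), above C+Fc-GLP-1 mice after PH at 0.45 ± 0.34 by more than the larger SD of the pair. Of the other neighbours in the order, only MCD mice after PH and C+Fc-GLP-1 mice before PH lay further apart than the larger of their SDs.

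Markers of quiescent HSC were examined beside Lrat, since these cells carry most of the hepatic Lrat. Of 13 markers 12 could be tested, Gfap being too dim. In MCD against C mice before PH, 2 of the 12 (Hand2 and Lhx2) passed the threshold upwards and 0 downwards, and the log2 of their summed level ran from 6.84 to 7.28 in C and from 7.42 to 7.53 in MCD mice. In MCD mice after against before PH, 0 passed upwards and 1 downwards, and the sum after PH ran from 6.82 to 7.28. In M+Fc-GLP-1 against MCD mice before PH, 0 passed upwards and 1 downwards, with sums from 6.78 to 7.73 in M+Fc-GLP-1 mice. Markers of activated HSC also moved in MCD against C mice before PH, where 4 of 7 tested rose and 0 fell. Their summed levels overlapped in this comparison, as all MCD sums lay within the range of C mice, 4.04 to 5.22. Of 7 Kupffer cell and macrophage markers 6 rose there and 0 fell, with sums from 5.90 to 6.77 in C and from 6.95 to 8.45 in MCD mice, and 4 fell and 0 rose in M+Fc-GLP-1 against MCD mice before PH. Of all genes, 10.9% passed upwards and 15.4% downwards in MCD against C mice before PH. The shares were 6.15% and 3.18% in MCD mice after against before PH, and 4.42% and 2.79% in M+Fc-GLP-1 against MCD mice before PH. The part of these cells in the Lrat values was not tested.

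**Figure D2:**
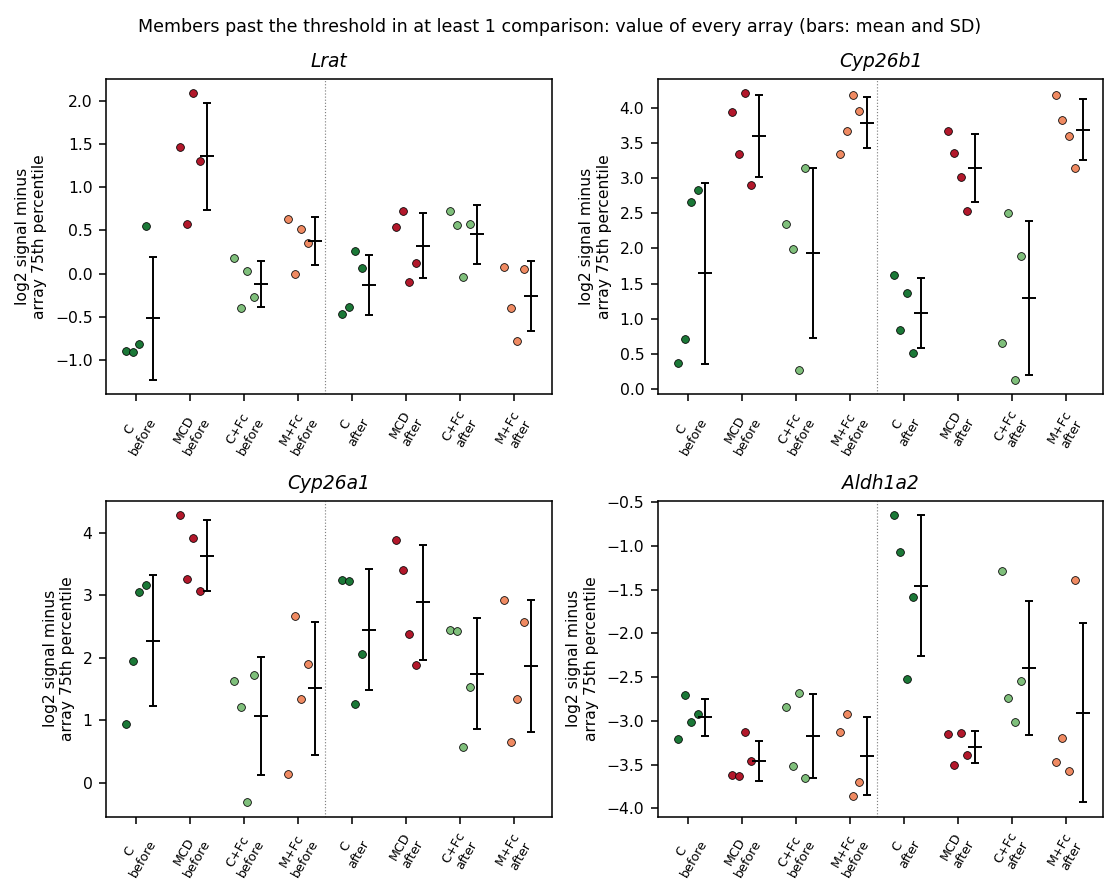
Each panel shows the value of every array (log2 signal minus the 75th percentile of the array) in the 8 groups for Lrat, Aldh1a2, Cyp26a1 and Cyp26b1, with bars for mean and SD, n = 4. The Cyp26b1 panel places all 16 MCD-fed arrays between 2.54 and 4.20, and the Aldh1a2 panel shows the 4 arrays of C mice after PH above those before PH.

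Rbp4 (chr19:38116620-38125321), the plasma carrier of retinol that hepatocytes secrete, was among the brightest genes of the array, with a mean value at percentile 99.7. Its group means lay between 8.29 ± 0.39 (SD, n = 4) in MCD mice after PH and 9.37 ± 0.79 in M+Fc-GLP-1 mice after PH. That difference, 1.08 ± 0.40 (limma adjusted p = 0.1), was the largest of Rbp4 and did not pass the threshold. It passed only when M+Fc-GLP-1 after PH replicate 4, the lowest array of its group, was left out (1.42, adjusted p = 0.0359). The spot of Rbp4 was flagged on 1 array of C+Fc-GLP-1 mice before PH, so that this group has n = 3 for Rbp4 and the fit rests on 31 arrays.

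Adh1 (chr3:138277585-138290698), the main class I alcohol dehydrogenase of mouse liver, which oxidizes retinol to retinal, had group means between 8.03 ± 0.39 (SD, n = 4) in MCD mice and 9.15 ± 0.15 in C+Fc-GLP-1 mice, both after PH. Its 4 MCD arrays after PH read 7.67, 7.88, 8.57 and 8.01, and its 4 M+Fc-GLP-1 arrays read 8.95, 9.30, 8.76 and 8.63. The groups did not overlap, as held for 14.2% of all genes, and the difference of 0.88 ± 0.30 (limma adjusted p = 0.076) did not pass the threshold. Of all 9 genes 0 passed it in M+Fc-GLP-1 against MCD mice after PH, where 6.45% of all genes did, and 2 (Rbp4 and Adh1) were under 0.05 before adjustment.

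Aldh1a1 (chr19:20492583-20643463), which oxidizes retinal to retinoic acid and is abundant in hepatocytes, had group means between 8.53 ± 0.65 (SD, n = 4) and 9.32 ± 0.46, with no difference between neighbours in the order beyond the larger SD. In the values as processed here it passed the threshold in no comparison. With normexp background correction of the mean signals and quantile normalization it passed in C+Fc-GLP-1 against C mice before PH (-1.15, limma adjusted p = 0.00554, against -0.32 and 0.583) and, before PH, for M+Fc-GLP-1 against MCD mice (-1.46, 0.00144, against -0.18 and 0.742), and the authors' normalized values gave -1.16 and -1.52. The ratio of mean to processed signal at its spot before PH had medians of 1.27 for C, 1.12 for MCD, 0.56 for C+Fc-GLP-1 and 0.634 for M+Fc-GLP-1 mice, that is, above 1 on slide 1 and below 1 on slide 2, and the part of this in the calls was not tested. In these 2 comparisons the sign was the same in all 18 alternatives.

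Aldh1a2 (chr9:71215789-71296243) also makes retinoic acid from retinal, in liver mainly in mesenchymal and mesothelial cells, and was the dimmest of the 9 genes, at percentile 19.2. The 4 C arrays before PH read -3.20, -2.70, -3.02 and -2.92, and the 4 C arrays after PH read -0.65, -1.07, -2.52 and -1.58. The groups did not overlap, and Aldh1a2 rose by 1.51 ± 0.40 (2.84-fold, n = 4 per group, limma adjusted p = 0.0134). It was the only one of the 9 genes past the threshold in this comparison, where 13.8% of all genes passed and 17.9% did not overlap. The call was lost without C after PH replicate 1, the brightest array (1.24, adjusted p = 0.0699), and with normexp and quantile normalization (0.70, 0.0648). In MCD mice the after-PH arrays read -3.16, -3.51, -3.13 and -3.39, below all 4 C arrays (17.2% of all genes did not overlap there). Aldh1a2 was thus lower by -1.84 ± 0.40 in MCD than in C mice after PH (3.59-fold, limma adjusted p = 0.00297), a difference that passed in all 18 alternatives, although its size was -0.89 with normexp and quantile normalization.

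The 4 C+Fc-GLP-1 arrays after PH read -1.28, -2.73, -3.02 and -2.54 for Aldh1a2, and the 4 M+Fc-GLP-1 arrays read -3.47, -3.19, -3.58 and -1.39, with 3 of the latter well above background. In both treated groups 1 array stood above the others and reached the range of C mice after PH. C+Fc-GLP-1 against C mice after PH gave -0.94 ± 0.40 (limma adjusted p = 0.258), and 0 of the 9 genes passed there, where 2.05% of all genes did (10.5% did not overlap) and Aldh1a2 alone was under 0.05 before adjustment. Before PH the values of MCD mice were -3.62, -3.63, -3.13 and -3.46, and 3 of 4 C+Fc-GLP-1 arrays and 1 of 4 M+Fc-GLP-1 arrays were well above background.

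Marker lists that moved in the same comparisons are given beside Aldh1a2. In C mice after against before PH, 0 of 12 quiescent HSC markers rose and 2 (Ecm1 and Hhip) fell, and 5 of 7 activated HSC markers rose (Col1a1, Col1a2, Col3a1, Timp1 and Loxl2) and 0 fell, and the log2 of their summed level went from a range of 4.04 to 5.22 to a range of 4.92 to 7.36. All 7 Kupffer cell and macrophage markers rose there as well, with sums from 5.90 to 6.77 before and from 7.07 to 9.21 after PH. In MCD against C mice after PH, 3 of 7 activated HSC markers (Acta2, Col1a2 and Col3a1) fell and 0 rose, with sums from 4.36 to 4.88 in MCD mice. Of 7 mesothelial markers 4 could be tested and 0 passed in either comparison, their sums running from -0.20 to 2.99 in C mice after PH, while Upk3b, Upk1b and Lrrn4 were too dim. Of all genes, 6.03% passed upwards and 7.82% downwards in C mice after against before PH. The shares were 6.07% and 6.11% in MCD against C mice after PH. The slides and the scanner differ between C mice before and after PH, and their part was not tested.

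Cyp26b1 (chr6:84571414-84593908), which hydroxylates retinoic acid and clears it, was higher on the MCD than on the chow diet in each of the 4 comparisons of diets, which share no array. The share of all genes that passed the same way in all 4 was not counted. Before PH and without drug, the 4 C arrays read 0.37, 0.72, 2.66 and 2.83, and the 4 MCD arrays read 3.94, 3.34, 4.20 and 2.90. The groups did not overlap, with 0.08 between the highest C and the lowest MCD array, and the difference was 1.95 ± 0.55 (SE, n = 4 per group, 3.87-fold, limma adjusted p = 0.00923). The spread was wider on chow, with SDs of 1.28 in C and 0.59 in MCD mice. Without C before PH replicate 1 the adjusted p was 0.0525, and with normexp and quantile normalization it was 0.054 at a difference of 1.43. Activated HSC markers (4 of 7) and Kupffer cell and macrophage markers (6 of 7) rose in this comparison, as given above beside Lrat. In M+Fc-GLP-1 against C+Fc-GLP-1 mice before PH, 0 activated HSC markers rose and 1 fell (5.37% and 5.02% of all genes). In MCD against C mice after PH, 0 rose and 3 fell (6.07% and 6.11%). In M+Fc-GLP-1 against C+Fc-GLP-1 mice after PH, 0 passed either way (6.19% and 6.67%). Of the Kupffer cell and macrophage markers 0 rose in any of these, and 1, 0 and 1 fell in the same order. The part of these cells in the Cyp26b1 values was not tested.

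In the treated mice before PH, the 4 C+Fc-GLP-1 arrays read 2.35, 1.99, 0.27 and 3.14 for Cyp26b1 and the 4 M+Fc-GLP-1 arrays read 3.34, 3.67, 4.17 and 3.96. The groups did not overlap and both lay on slide 2. The difference was 1.84 ± 0.55 (3.59-fold, limma adjusted p = 0.0272), where 10.4% of all genes passed and 15.5% did not overlap, and Cyp26b1 was the only one of the 9 genes past the threshold. This was the least stable of the 4 calls, kept in 9 of 18 alternatives. It was lost without C+Fc-GLP-1 replicate 2 (adjusted p = 0.0557) or replicate 3, the lowest array (0.141), without M+Fc-GLP-1 replicate 3 (0.0752) or replicate 4 (0.0682), and under 5 processing settings with adjusted p from 0.0516 to 0.0752.

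After PH the 4 C arrays read 1.62, 0.84, 1.36 and 0.51 for Cyp26b1 and the 4 MCD arrays read 3.66, 3.36, 3.02 and 2.54. The difference was 2.06 ± 0.55 (4.18-fold, limma adjusted p = 0.0125), where 12.2% of all genes passed and 17.2% did not overlap, and Cyp26b1 and Aldh1a2 were the only ones of the 9 genes past the threshold. In the treated mice the 4 C+Fc-GLP-1 arrays after PH read 0.66, 2.5, 0.13 and 1.89 and the 4 M+Fc-GLP-1 arrays read 4.17, 3.82, 3.60 and 3.14. This was the largest of the 4 differences, 2.39 ± 0.55 (5.24-fold, limma adjusted p = 0.00355), on a shared slide, and Cyp26b1 alone of the 9 genes passed, where 12.9% of all genes did and 16.6% did not overlap. Among hepatocyte markers, 3 of 10 fell and 0 rose in MCD against C mice before PH, 0 passed in either direction in M+Fc-GLP-1 against C+Fc-GLP-1 mice before PH or in MCD against C mice after PH, and 1 (Tat) rose in M+Fc-GLP-1 against C+Fc-GLP-1 mice after PH. Of all genes, 15.4% fell in the first of these comparisons and 6.19% rose in the last. Both calls after PH were kept in all 18 alternatives, with adjusted p up to 0.047 and 0.0231.

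The size of the diet difference in Cyp26b1 was not shown to depend on the drug or on PH. Under Fc-GLP-1 before PH it differed from that without drug by -0.11 ± 0.77 (limma adjusted p = 0.953), and under Fc-GLP-1 it differed after PH from before PH by 0.54 ± 0.77 (limma adjusted p = 0.868), where 0.0939% of all genes passed. In the latter, 0 of the 9 genes passed and 1 (Lrat, -1.21) was under 0.05 before adjustment. Fc-GLP-1 against no drug before PH gave 0.29 ± 0.55 for Cyp26b1 on chow and 0.19 ± 0.55 on the MCD diet, and neither passed the threshold (limma adjusted p = 0.820 and 0.870). Ordered by mean, the 4 MCD-fed groups, from 3.78 ± 0.36 (SD, n = 4) in M+Fc-GLP-1 mice before PH to 3.14 ± 0.48 in MCD mice after PH, stood above the 4 chow-fed groups, from 1.94 ± 1.21 in C+Fc-GLP-1 mice before PH to 1.08 ± 0.50 in C mice after PH. No neighbours in this order differed by more than the larger of their SDs, the widest gap being 1.21, equal to the larger SD, between MCD mice after PH and C+Fc-GLP-1 mice before PH.

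Cyp26a1 (chr19:37697738-37701536), the retinoic acid hydroxylase that retinoic acid itself induces in hepatocytes, fell with Fc-GLP-1 on the MCD diet before PH. The 4 MCD arrays read 4.28, 3.26, 3.92 and 3.06, and the 4 M+Fc-GLP-1 arrays read 0.14, 2.67, 1.35 and 1.89. The groups did not overlap, and Cyp26a1 fell by 2.12 on the log2 scale (SE 0.62, n = 4 per group, 4.34-fold lower, limma adjusted p = 0.0373). It was the only one of the 9 genes past the threshold in this comparison, where 7.21% of all genes passed and 16.3% did not overlap, and MCD and M+Fc-GLP-1 mice before PH lay on different slides. The call was kept under all processing settings and lost when any of 6 arrays was left out, namely MCD before PH replicate 1 (adjusted p = 0.116), replicate 2 (0.0552) or replicate 3 (0.0821), or M+Fc-GLP-1 before PH replicate 1 (0.136), replicate 3 (0.086) or replicate 4 (0.0508). The difference itself stayed between -1.66 and -2.5.

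The 4 C arrays before PH read 0.93, 1.95, 3.05 and 3.16 for Cyp26a1, and MCD against C mice gave 1.36 ± 0.62 (limma adjusted p = 0.105) with overlap of the groups. The 4 C+Fc-GLP-1 arrays read 1.63, 1.22, -0.31 and 1.72, and C+Fc-GLP-1 against C mice gave -1.21 ± 0.62 (limma adjusted p = 0.302). Of the 9 genes 0 passed the threshold in the latter comparison and 0 were under 0.05 before adjustment, where 2.08% of all genes passed and 9.97% did not overlap. The effect of Fc-GLP-1 in MCD-fed minus that in chow-fed mice was -0.91 ± 0.88 for Cyp26a1 (limma adjusted p = 0.560), so that a difference between diets in the response was not shown.

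After PH the Cyp26a1 values were 3.24, 3.23, 1.26 and 2.06 in C mice and 3.89, 3.40, 2.38 and 1.88 in MCD mice. The treated mice read 2.45, 2.43, 0.57 and 1.52 on chow and 2.91, 0.64, 1.34 and 2.56 on the MCD diet. All 4 groups overlapped, and M+Fc-GLP-1 against MCD mice after PH gave -1.02 ± 0.62 (limma adjusted p = 0.345). In the order of means MCD mice before PH were highest at 3.63 ± 0.57 (SD, n = 4) and C+Fc-GLP-1 mice before PH lowest at 1.06 ± 0.94, and no neighbours differed by more than the larger of their SDs. Beside the lower Cyp26a1 of M+Fc-GLP-1 mice before PH, 4 of 7 Kupffer cell and macrophage markers fell against MCD mice and 0 rose, while 0 of 10 hepatocyte markers passed in either direction. In that comparison 4.42% of all genes passed upwards and 2.79% downwards.

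Rarb (chr14:16430839-17082331), a retinoic acid receptor whose own transcription retinoic acid induces, passed the threshold in no comparison. Its tested probe had group means between -0.07 ± 0.42 (SD, n = 4) in C+Fc-GLP-1 mice before PH, with MCD mice after PH next to them at -0.07 ± 0.43, and 0.67 ± 0.47 in MCD mice before PH, and no neighbours in the order differed beyond the larger SD. A dimmer kept probe of Rarb, well above background on 30 of 32 arrays, passed in no comparison either and had the opposite sign in some of them, for example 0.37 and -0.42 in M+Fc-GLP-1 against C+Fc-GLP-1 mice before PH. The remaining Rarb probe was well above background on 0 arrays.

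Rarres2 (chr6:48569696-48572845) encodes chemerin, a retinoic acid responsive chemoattractant that liver secretes, and was bright, at percentile 98.9. The 4 MCD arrays before PH read 7.87, 8.05, 7.96 and 8.18, and the 4 M+Fc-GLP-1 arrays read 8.36, 8.23, 8.57 and 8.65. These groups did not overlap, as held for 16.3% of all genes, and the difference was small at 0.44 ± 0.21 and did not pass (limma adjusted p = 0.199). After PH all 4 MCD arrays, between 7.32 and 7.86, were below all 4 C arrays, between 8.0 and 8.38, with a difference of -0.53 ± 0.21 (limma adjusted p = 0.101) that passed in 1 of 18 alternatives. In that comparison 17.2% of all genes did not overlap. After against before PH, Rarres2 was lower by 0.23 to 0.51 in each of the 4 kinds of mice, and none of these differences passed the threshold. Its arrays before and after PH did not overlap in the MCD group (as held for 19.2% of all genes), nor in the C+Fc-GLP-1 group (8.94%). In C+Fc-GLP-1 mice after against before PH 0 of the 9 genes passed and 0 were under 0.05 before adjustment, where 0.831% of all genes passed and 8.94% did not overlap. In M+Fc-GLP-1 mice after against before PH 0 passed, where 1.71% of all genes did and 9% did not overlap, and Aldh1a1 and Rarres2 were under 0.05 before adjustment.

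**Figure D3:**
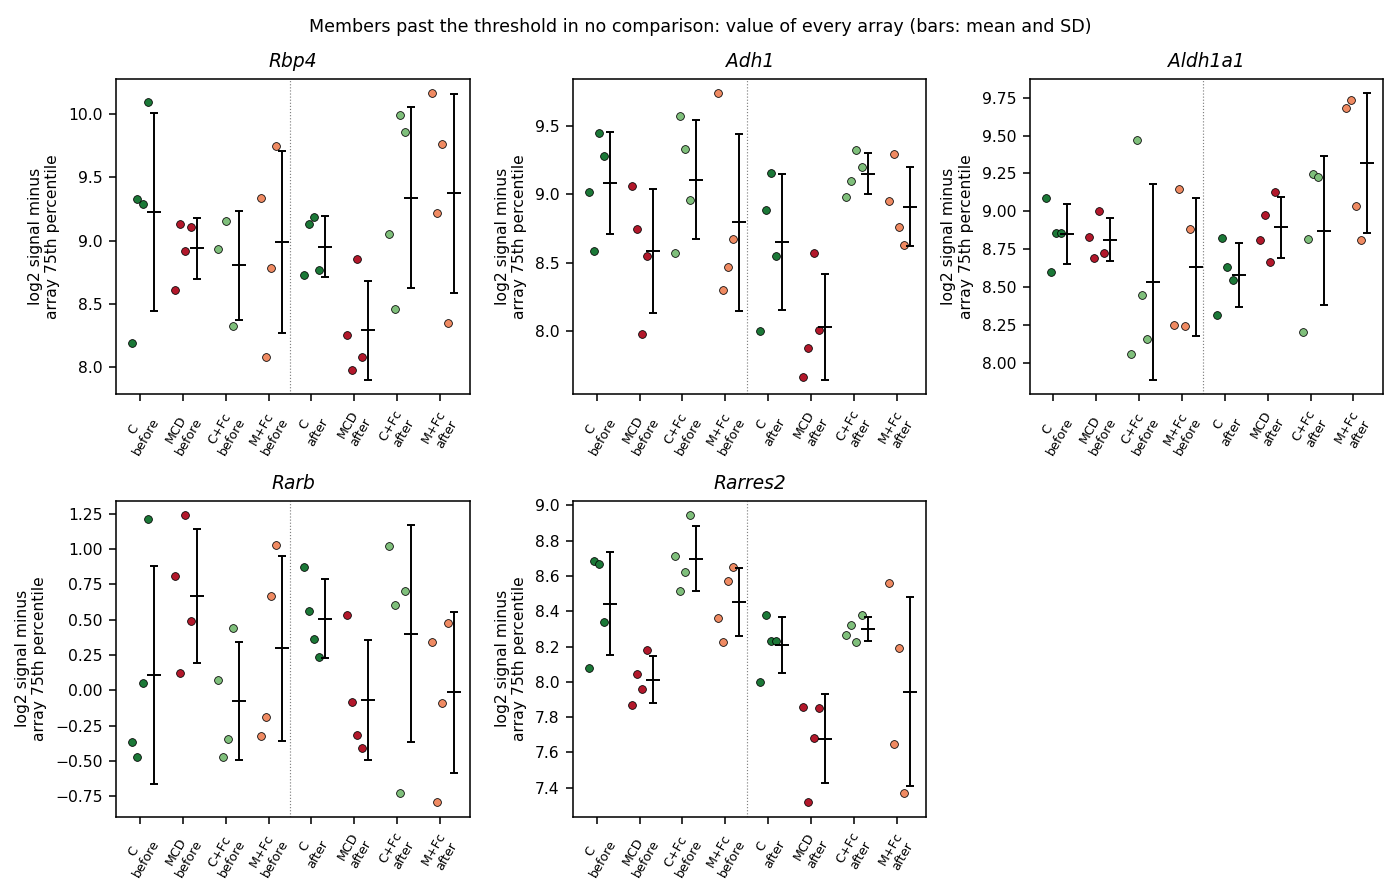
Each panel shows the value of every array (log2 signal minus the 75th percentile of the array) in the 8 groups for Rbp4, Adh1, Aldh1a1, Rarb and Rarres2, with bars for mean and SD, n = 4 except n = 3 for Rbp4 in C+Fc-GLP-1 mice before PH. Adh1 in M+Fc-GLP-1 mice after PH (8.63 to 9.30) lies above MCD mice after PH (7.67 to 8.57), a difference that did not pass the threshold.

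Single livers of the same group varied together in some of these genes. Each array was expressed as its deviation from the mean of its group, so that diet, drug, PH and slide do not enter, and all 36 pairs of the 9 genes were correlated over the arrays. Cyp26a1 and Rarb had Pearson's r = 0.68 (permutation within groups, two-sided p = 0.0002, adjusted over the pairs 0.0072) and Spearman's rho = 0.64 (permutation p = 0.00054, adjusted 0.0184) over 32 arrays. Cyp26a1 and Cyp26b1 had r = 0.62 (permutation p = 0.00108, adjusted 0.018) and rho = 0.57 (permutation p = 0.00217, adjusted 0.026). Cyp26b1 and Rarb had r = 0.60 (permutation p = 0.00179, adjusted 0.018) and rho = 0.61 (permutation p = 0.00102, adjusted 0.0184). Lrat and Rarb had r = 0.63 (permutation p = 0.002, adjusted 0.018) and rho = 0.55 (permutation p = 0.00392, adjusted 0.0353). These were the 4 of 36 pairs past the threshold by either measure. The pairs with Rarb rest on its tested probe alone, and its dimmer kept probe was not correlated.

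Leaving out the 2 arrays farthest from the median of the first gene gave r = 0.66 for Cyp26a1 with Rarb, 0.56 for Cyp26a1 with Cyp26b1, 0.60 for Cyp26b1 with Rarb and 0.51 for Lrat with Rarb. Among 20977 genes ranked by r with Cyp26a1, Rarb stood at place 3 and Cyp26b1 at place 14, and among those ranked with Rarb, Cyp26a1 stood at place 3 as well. The share of spots well above background correlated with these 4 genes at -0.19 to -0.34 and the 75th percentile of the signal at -0.18 to 0.02. With normexp and quantile normalization, or in the authors' normalized values, the 3 pairs among Cyp26a1, Cyp26b1 and Rarb had r from 0.42 to 0.51 and adjusted p from 0.153 to 0.25, past the threshold no longer, whereas Lrat with Rarb kept r = 0.62 in both.

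The sequence before RefSeq starts of the retinoid genes was examined for the direct repeat through which retinoic acid receptors are known to act on Cyp26a1 and Rarb. A match in these genes could thus be foreseen, and any link of the repeat to their correlation was not tested. The motif was a pair of half-sites, each AGGTCA or AGTTCA or GGGTCA or GGTTCA, with 5 bases between them, on either strand. Windows were the 250 bases before an annotated start (RefSeq, GRCm38.p6), but not every annotated start had a window. For Rarb, Cyp26a1 and Cyp26b1 the first annotated start had no window of its own, and a later start was used. The motif was found in 29 of 32851 windows (0.0883%), in 28 genes. Among the 8 of the 9 retinoid genes with a window, it was found for Rarb and Cyp26a1 and for none of the other 6. Of the 40 further retinoid genes with a window, described below, it was found in 0. A single half-site occurs in 38.6% of windows. The stretches that hold it are shown 5′ to 3′ on the strand of the gene, with the repeat in capitals.
Rarb, chr14:16575477-16575626, minus strand, the 150 bases before the start: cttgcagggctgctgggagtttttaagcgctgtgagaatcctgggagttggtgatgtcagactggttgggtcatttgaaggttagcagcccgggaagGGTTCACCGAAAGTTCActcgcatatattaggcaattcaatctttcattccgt
Cyp26a1, chr19:37697770-37697799, plus strand, 30 bases around the repeat: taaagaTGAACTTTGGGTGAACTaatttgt

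In Rarb the repeat lay at bases -53 to -37 from the start, as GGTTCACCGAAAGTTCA on the strand of the gene, and this start is 506855 bases downstream of the first annotated start. In Cyp26a1 it lay at bases -32 to -16 on the opposite strand, where it reads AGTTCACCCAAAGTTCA, and another annotated start of the gene lies 70 bases further upstream. The windows of Lrat, Adh1, Aldh1a2 and Cyp26b1 held neither the repeat nor a half-site, and 1 window each of Rbp4 and Aldh1a1 held a half-site. A match is a description of the letters in these windows, and binding was not measured.

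The group means of several genes outside the retinoid pathway followed those of the members most closely. Over the 8 group means, and among 14179 genes well above background on all arrays, Cyp26b1 was most like Tmem192 (r = 0.99) and Emc6 (0.99), Lrat was most like Fancb (0.97) and Srgap2 (0.97), Cyp26a1 was most like Noc2l (0.97), Rarb was most like Ckap5 (0.99), Rarres2 was most like Faah (0.99) and Adh1 was most like Cldn5 (0.98). With 8 points and this many candidates, values of this size are a description only.

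A further 49 genes of retinoid transport, oxidation, ester turnover and signalling were counted beside these 9, of which 43 could be tested, and Rbp2, Crabp1, Stra6, Cyp26c1, Cmklr1 and Gpr1 were too dim. In MCD against C mice before PH, 6 of the 43 rose and 12 fell, against 10.9% and 15.4% of all genes tested. The largest rises were those of Adh7, an alcohol dehydrogenase active on retinol (2.87, with 1 of 4 C arrays well above background), Bco1, which cleaves beta-carotene to retinal (1.80), and the retinol dehydrogenase Rdh5 (1.36). The largest falls were those of Aox3 (-2.37) and Aox1 (-1.99), aldehyde oxidases, and Fabp5, a fatty acid binding protein that also carries retinoic acid (-2.36). The median of the 43 was -0.34, against -0.12 over all genes tested.

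The other comparisons of diets had counts of the same kind. In M+Fc-GLP-1 against C+Fc-GLP-1 mice before PH, 5 of 43 rose and 9 fell, against 5.37% and 5.02% of all genes. In the same groups after PH, 6 rose and 14 fell, against 6.19% and 6.67% of all genes. In MCD against C mice after PH, 5 rose and 9 fell, against 6.07% and 6.11% of all genes. The counts of this last comparison depended on single arrays, being 3 and 3 without C after PH replicate 2, 3 and 4 without C replicate 3, and 4 and 3 without MCD replicate 1. Bco1 and the retinol dehydrogenase Rdh9 rose, and Bco2, Rarres1, Aox1 and Fabp5 fell, in all 4 comparisons of diets. These genes were picked after their values were seen. The share of all genes that passed the same way in several or all 4 was not counted. Bco1 was higher by 1.80 ± 0.31, 1.69 ± 0.31, 1.72 ± 0.31 and 1.22 ± 0.31 (limma adjusted p from 9.82e-05 to 0.00777), and no array of MCD-fed mice was below an array of chow-fed mice in any of the 4. Fabp5 was lower by -2.36, -4.35, -1.42 and -1.72 (limma adjusted p from 8.69e-09 to 0.0129). The triglyceride and retinyl ester lipase Pnpla2 rose in 3 of the 4. In M+Fc-GLP-1 against C+Fc-GLP-1 mice before PH, Adh7 was at least 3.66-fold higher. The retinol dehydrogenase Dhrs9 and the lipase Pnpla3 were at least 7.47-fold and 7.5-fold lower there. All 3 are lower bounds, since 1 group of each was not well above background.

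**Figure D4:**
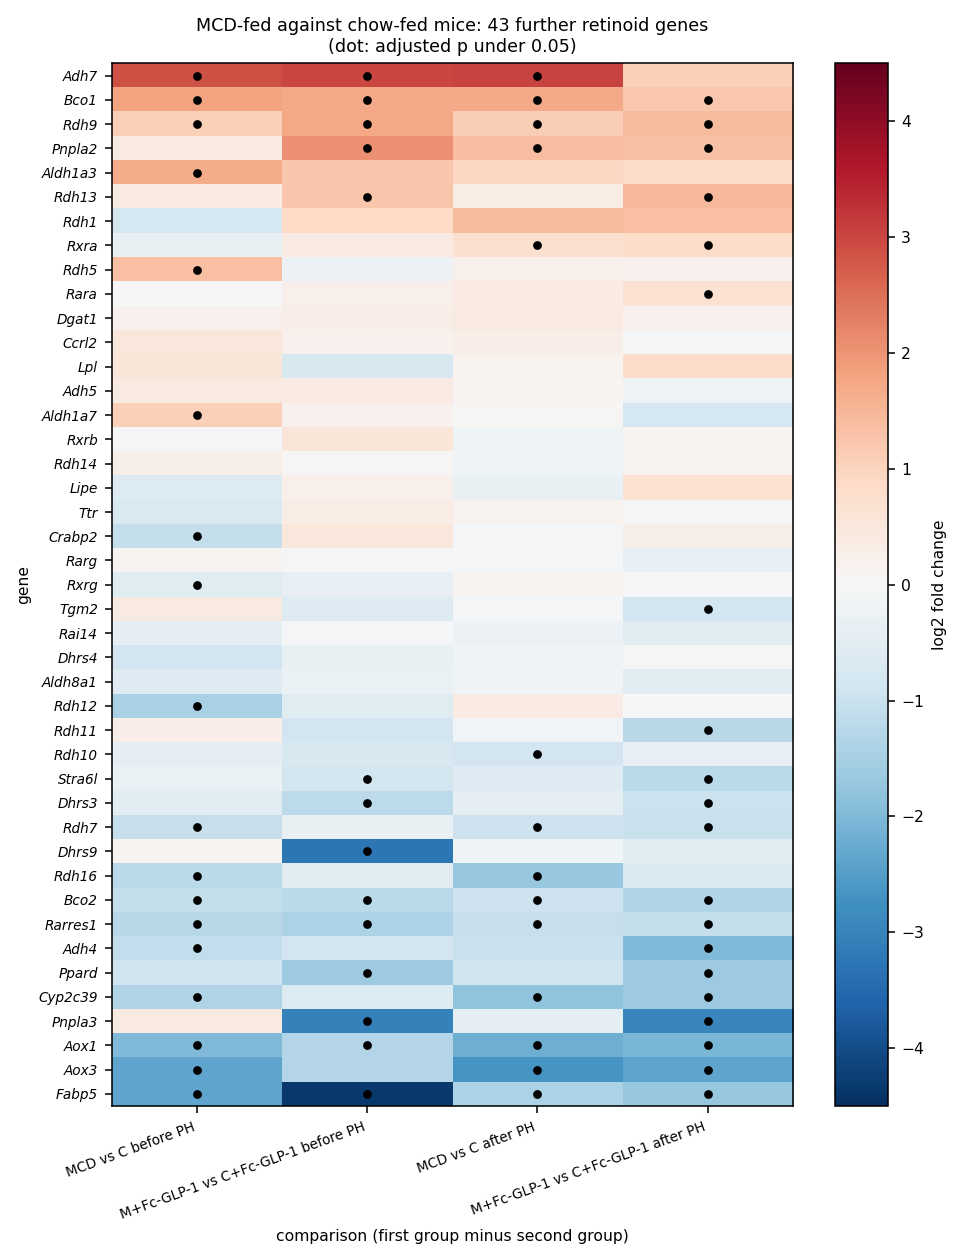
Colours give the log2 fold change (MCD-fed minus chow-fed mice) of the 43 further retinoid genes in the 4 comparisons of diets, and dots mark an adjusted p under 0.05 by limma. Bco1 and Rdh9 carry dots for higher levels, and Fabp5, Aox1, Bco2 and Rarres1 carry dots for lower levels, in all 4 columns.

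The comparisons of treatment moved fewer of the 43 genes. In C+Fc-GLP-1 against C mice before PH, Pnpla3 (2.52) and Fabp5 (2.21) rose and the cellular retinoic acid binding protein Crabp2 (-0.86) fell, 2 and 1 of 43 against 0.954% and 1.12% of all genes. In M+Fc-GLP-1 against MCD mice before PH, Rdh13 (1.35), the receptor partner Rxra (0.88) and Crabp2 (0.72) rose, and Aldh1a7 (-1.02) and Dhrs9, at least 3.86-fold lower though with overlap of the groups, fell, 3 and 2 of 43 against 4.42% and 2.79% of all genes. Single arrays moved these small counts. For C+Fc-GLP-1 against C mice they were 1 and 0 without C replicate 1, 3 or 4 or C+Fc-GLP-1 replicate 3, and 2 and 0 without C+Fc-GLP-1 replicate 1, 2 or 4. For the drug on the MCD diet they were 0 and 1 without MCD replicate 1 or M+Fc-GLP-1 replicate 3, 1 and 1 without MCD replicate 2, 3 or 4 or M+Fc-GLP-1 replicate 1, and 4 and 4 without M+Fc-GLP-1 replicate 2. In mice sampled after PH, Pnpla3 rose in C+Fc-GLP-1 against C mice (2.58, with overlap of the groups) and Aldh1a7 fell in M+Fc-GLP-1 against MCD mice (-1.59). These were 1 of 43 upwards and 0 downwards in C+Fc-GLP-1 against C mice, where 1.13% and 0.916% of all genes passed, and 0 upwards and 1 downwards in M+Fc-GLP-1 against MCD mice, where 3.7% and 2.76% did. The former became 0 and 0 without C after PH replicate 3 or C+Fc-GLP-1 after PH replicate 1 or 4, and the latter became 0 and 2 without MCD after PH replicate 4 and 1 and 1 without M+Fc-GLP-1 after PH replicate 4.

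After against before PH, the lipase Lpl was the gene of the list with the largest rise in each group where it passed. It rose by 2.58 in C, 2.21 in MCD and 2.99 in M+Fc-GLP-1 mice (limma adjusted p from 3.69e-05 to 0.000355). In C mice Aldh1a7 (1.21), Aldh1a3 (1.57) and Tgm2 (0.84) rose as well, and Rdh1 (-1.74), Bco2 (-0.90) and Rdh7 (-0.80) fell, all 3 with overlap of the groups and Rdh7 at 0.30 with normexp and quantile normalization. These were 4 and 3 of 43, against 6.03% and 7.82% of all genes. They were 2 and 2 without C before PH replicate 1, 4 and 1 without replicate 3 and 1 and 3 without replicate 4, and 2 and 0 without C after PH replicate 1 and 3 and 1 without replicate 2. In MCD mice Rdh12 (1.20), Fabp5 (1.19) and Rxra (0.92) rose and Aox3 (-1.65) and Rdh16 (-0.99) fell, 4 and 2 of 43 against 6.15% and 3.18% of all genes. With any one of the 8 arrays left out, 0 or 1 fell, and 2 rose without MCD after PH replicate 4. In C+Fc-GLP-1 mice Adh7 passed upwards (at least 1.64-fold, limma adjusted p = 0.0453) and Fabp5 downwards (-1.69, 0.0322), 1 and 1 of 43 against 0.479% and 0.352% of all genes. Both calls depended on single arrays, since that of Adh7 was lost without any one of the 8 arrays and that of Fabp5 without any one of 7 of them, all but C+Fc-GLP-1 before PH replicate 2. In M+Fc-GLP-1 mice Lpl alone passed, and this 1 of 43 upwards with 0 downwards stands against 0.813% and 0.892% of all genes. Without M+Fc-GLP-1 before PH replicate 2 it was 2 and 1.

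**Figure D5:**
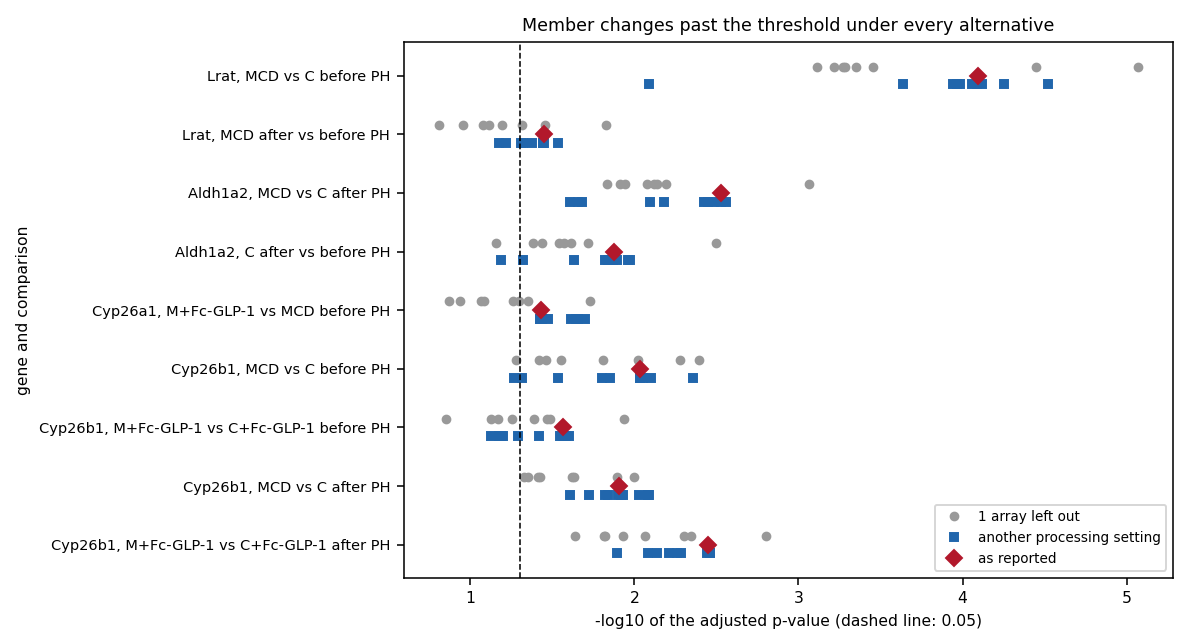
The horizontal axis gives -log10 of the limma adjusted p, with a dashed line at 0.05, for the 9 changes of Lrat, Aldh1a2, Cyp26a1 and Cyp26b1 that passed the threshold, as reported (diamonds), with 1 array left out (circles) and under another processing setting (squares). Lrat in MCD against C mice before PH, Aldh1a2 in MCD against C mice after PH and both changes of Cyp26b1 after PH keep every mark to the right of the line, and the other 5 have marks on both sides.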

How the data were processed

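The authors hybridized liver RNA to 1-colour oligonucleotide arrays and deposited, for each array, the scanner software's processed signal, an intensity in linear units that per the file headers was background corrected and detrended within the array, and a table of normalized log2 values, for which the submitters' processing notes name limma. Here the main value was log2 of the processed intensity minus the 75th percentile over an array's 59305 non-control spots. Spots flagged as outliers were left out. Probes were retained where at least 1 group had all 4 arrays well above background (29300 probes), with each of 21289 genes represented by its brightest retained probe. A single linear model of the 8 groups without covariates was fitted in limma 3.58.1 (R 4.3.3), p-values were adjusted by Benjamini-Hochberg over every tested gene, and the threshold was 0.05. Of the 14 comparisons, 12 set a pair of groups side by side and 2 were interactions. A change is written as "at least" where no array of the dimmer group was well above background, with the dimmest signals above background standing in for it. SE is the standard error of limma, and SD is that of 4 arrays.

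The 9 genes and all lists were chosen with earlier results of these data known. Named from the further retinoid genes are up to 3 changes each way, largest first, that passed the threshold without overlap of the groups, plus any needed to name a count of 5 or fewer, and those past the threshold in all 4 comparisons of diets or in several were picked after their values were seen. Markers of HSC and other cells are given as counts and summed levels. Likeness is Pearson's r over group means, for members with 6 or more groups entirely well above background. The correlations within groups, with 100000 permutations, and the motif search were added after the data were seen.

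The alternatives were normexp (offset 50) followed by quantile normalization, centring on the array median or on probes well above background on every array, the authors' normalized log2 values (within the sets before and after PH only), keeping dim probes, averaging the retained probes of a gene, fitting just the groups in a comparison, a block for the replicate number, and omission of each array in turn. Slide gave no separate fit, as every group lay on 1 slide. Keeping flagged spots and a percentile over probes counted once were chosen after seeing the data. The steps were tested on simulated data with the spreads of the real genes. Of 100 genes changed by 1 on the log2 scale 31% were recovered, and of 100 changed by 2, 84%. There was 1 false call. A change of about 1 that did not pass is thus not shown to be absent. Arrays have no read counts, so no counting intervals are given. The sequences are from RefSeq on GRCm38.p6, and the gene positions too. A further gene of the list is not reported here, and other measurements of the study were not analysed here.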

Additional observations from a re-analysis of the deposited data

Results flagged for a closer look

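Lrat in C mice before PH had 1 array far from the other 3, at 0.55 against -0.90, -0.91 and -0.82, a gap that takes up 0.932 of the range of the group. It was the only one of 71 groups of 4 arrays examined for the 9 genes with such a gap. Chance alone gives such a gap in about 1 in 20 groups, so that 1 among 71 is not unusual. Without this array the difference of MCD from C mice was 2.23.

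Of the 43 further retinoid genes, 6 passed the threshold of limma for a drug response that differs between diets before PH, a comparison in which slide differences cancel and 6.13% of all genes passed. The response on the MCD diet minus that on chow was 1.57 for Crabp2, -1.62 for Rdh5, -3.39 for Dhrs9, 1.65 for Pnpla2, -3.44 for Pnpla3 and -1.99 for Fabp5, where Dhrs9 and Pnpla3 were not well above background on any array of M+Fc-GLP-1 mice. These 2 higher and 4 lower values became 0 and 2 with normexp and quantile normalization and in the authors' values, and 0 and 10 with median centring, so that the calls of Crabp2 and Pnpla2 were lost in all of these. Of 26 alternatives, the call was lost in 3 for Crabp2, 16 for Rdh5, 0 for Dhrs9, 8 for Pnpla2, 2 for Pnpla3 and 6 for Fabp5. With 1 array left out the counts were 1 and 2 without C replicate 1 or C+Fc-GLP-1 replicate 4, 1 and 3 without MCD replicate 1, C+Fc-GLP-1 replicate 3 or M+Fc-GLP-1 replicate 1, and 2 and 2 without MCD replicate 4 or M+Fc-GLP-1 replicate 4.

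The change of Fabp5 from before to after PH under Fc-GLP-1 was 2.63 ± 0.53 higher on the MCD diet than on chow (limma adjusted p = 0.0441), where 0.0939% of all genes passed. The call was lost in 15 of 25 alternatives, namely with normexp and quantile normalization, without the filter, in a fit of only the groups compared, with the replicate block and in 11 of 16 fits with 1 array left out. Those arrays were C+Fc-GLP-1 before PH replicates 1, 3 and 4, M+Fc-GLP-1 before PH replicates 2 and 4, C+Fc-GLP-1 after PH replicates 2, 3 and 4, and M+Fc-GLP-1 after PH replicates 1, 2 and 3.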

How the results depend on the processing

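Of the results for the 9 genes under all alternatives, 2324 kept their side of the threshold, 26 lost and 17 gained the call. None of the 9 called changes turned direction, whereas the sign of 50 of the 117 changes that were not called differed in at least 1 alternative. The number of the 9 genes past the threshold was 1 in place of 2 in MCD against C mice before PH with normexp and quantile normalization (Cyp26b1 lost). In C+Fc-GLP-1 against C mice before PH it was 1 in place of 0 (Aldh1a1) with normexp and with the authors' values. In M+Fc-GLP-1 against MCD mice before PH it was 2 in place of 1, adding Aldh1a1 with normexp and the authors' values and Lrat with both other centrings, without the filter and with the percentile over probes. In M+Fc-GLP-1 against C+Fc-GLP-1 mice before PH it was 0 in place of 1 with normexp, median centring, the authors' values, no filter and a fit of only the groups compared. After against before PH it was 0 in place of 1 in C mice with normexp, 0 in place of 1 in MCD mice without the filter and in a fit of only the groups compared, and 1 in place of 0 (Aldh1a1) in both treated groups with normexp. In the interaction of diet and drug before PH it was 1 in place of 0 (Lrat) with median centring and with the percentile over probes. Leaving out 1 array at a time gave 1 to 2 in MCD against C before PH, 0 to 1 in M+Fc-GLP-1 against MCD and against C+Fc-GLP-1 before PH, in M+Fc-GLP-1 against MCD after PH, in C and in MCD after against before PH and in the interaction before PH, 2 in MCD against C after PH, 1 in M+Fc-GLP-1 against C+Fc-GLP-1 after PH, and 0 in the rest. The interaction gained Lrat without C before PH replicate 4 (adjusted p = 0.0164) or MCD before PH replicate 2 (0.0302). Causes were not tested.

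Among 61 named results of the further genes, 910 alternatives kept the call, 226 lost it and 1 turned direction (Rdh7 in C mice after against before PH, 0.30 with normexp). Counts of these genes before PH ran from 4 to 7 up and from 6 to 12 down in MCD against C mice, from 0 to 5 and from 0 to 2 in C+Fc-GLP-1 against C, from 0 to 4 and from 1 to 7 in M+Fc-GLP-1 against MCD, and from 4 to 6 and from 7 to 12 in M+Fc-GLP-1 against C+Fc-GLP-1 mice. In the same order after PH they ran from 3 to 6 and from 3 to 10, from 0 to 2 with 0 down, from 0 to 1 and from 1 to 2, and from 3 to 8 and from 11 to 14. After against before PH they ran from 1 to 5 and from 0 to 4 in C, from 2 to 4 and from 0 to 3 in MCD, from 0 to 2 both ways in C+Fc-GLP-1, and from 1 to 2 and from 0 to 1 in M+Fc-GLP-1 mice. In the interaction before PH they ran from 0 to 2 and from 2 to 10. With median centring the median of all genes moved from -0.12 to 0.24 in MCD against C mice before PH and the share of calls that were higher from 41.3% to 76.9%, and in M+Fc-GLP-1 against MCD mice from 0.10 to -0.22 and from 61.3% to 16.4%. The signs of the called changes of the 9 genes were the same with both centrings.

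Deviations of same-numbered arrays correlated at 0.02 on average (19 of 112 pairs over 0.1, highest 0.52). Those of differently numbered arrays correlated at -0.005 on average (36 of 336 pairs over 0.1, highest 0.42). Because these averages pool pairs from all groups, they cannot decide whether any 2 same-numbered arrays share a mouse. With the replicate number as a block the counts were 2, 0, 1 and 1 before PH and 2, 0, 0 and 1 after PH in the order of the comparisons above (MCD against C, C+Fc-GLP-1 against C, M+Fc-GLP-1 against MCD, M+Fc-GLP-1 against C+Fc-GLP-1), and the block changed no call of the 9 genes. This block gives each replicate number 1 term shared by all 8 groups, not a term for each mouse. It therefore cannot show whether pairing samples before and after PH would matter. Values of genes near background, such as Aldh1a2, carry less information than those of bright genes.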
